A study of Danio rerio with 6 samples.

Results

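Neuronal and synaptic genes were compared between 2 kinds of zebrafish tumour, as 10 listed genes for neuronal RNA-binding proteins, synaptic vesicle and SNARE proteins, G protein subunits, a stathmin and an olfactomedin. Probe sets were taken by their platform gene symbol. Of the 10 genes 9 were measured, by 14 of the 15502 tested probe sets, which together represent 8793 genes. stmn2b has no probe set under its symbol here and was not analysed here. The list was drawn up with measured values of these arrays known, so the differences of its members between the tumours are given as descriptions without a test.

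Of the tumours, 3 were small round blue cell tumours (SRBCT), from p53 M214K/M214K fish carrying Tg(HSP:EWS-FLI1), a transposon injected into early embryos in which the heat shock protein 70 promoter drives the human EWS-FLI1 fusion. The other 3 were malignant peripheral nerve sheath tumours (MPNST), from p53 M214K/M214K fish whose genotype names no transgene. All 6 fish were thus homozygous for the same p53 mutation, and an age is not given in the labels. The transgene entered as somatic insertions, so the SRBCT fish were mosaic, and its promoter is not specific to a cell type. The titles call the arrays biological replicates, each array was made from tumour tissue, and the series sets the transgenic tumours against another tumour type on the same p53 background.

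Neurons are marked by Elav-like RNA-binding proteins, which appear as neurons are born and stabilise and splice neuronal transcripts. At the synapse, vesicles carrying synaptophysin fuse with the membrane when the SNARE protein SNAP-25 joins its partners, and heterotrimeric G proteins, made of alpha, beta and gamma subunits, carry the signals of transmitter receptors. Stathmins bind tubulin in growing axons, and olfactomedins are secreted glycoproteins found in neural tissue. EWS-FLI1 is the driver of human Ewing sarcoma, a tumour that often carries neural markers.

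Values are log2 expression values, 1 per probe set and array, in which a step of 1 is a doubling. Dim values are drawn together by the RMA procedure that made them, so small numbers cannot tell a silent gene from a weakly expressed one. Differences are SRBCT minus MPNST with the standard error (SE) of the fit, and SD is over n = 3 arrays. In bulk tumour RNA, fewer cells of a type and less RNA per cell cannot be told apart.

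One array stood apart. Across the tested probe sets, SRBCT 3 correlated at 0.892 with SRBCT 1 and 0.864 with SRBCT 2, and at 0.875 to 0.916 with the MPNST arrays, whereas SRBCT 1 and SRBCT 2 correlated at 0.939. Values for the 9 genes and the counts over gene lists are therefore given also for SRBCT 1 and 2 alone. SRBCT 3 was set apart after its values were seen, so calls for SRBCT 1 and 2 alone are descriptions. At an adjusted p under 0.05 from limma, SRBCT 1 and 2 alone had 569 probe sets higher (3.67%) and 571 lower (3.68%) than MPNST, and all 3 SRBCT arrays had 14 higher (0.0903%) and 126 lower (0.813%). nkx2.2a, whose human ortholog is a known EWS-FLI1 target, measured 10.76, 9.58 and 4.18 on SRBCT 1, 2 and 3, and 3.48, 3.86 and 3.80 on the MPNST arrays. The glial and neural crest regulator sox10, a marker of the Schwann cell lineage, averaged 10.66 ± 0.34 in SRBCT and 10.64 ± 0.17 in MPNST.

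All 9 measured genes had a higher mean in SRBCT (55.9% of all genes did), and their pattern fell into 2 kinds. elavl3, elavl4, sypa, gng3 and snap25a were higher on SRBCT 1 and 2 and near the MPNST level on SRBCT 3. gng7, olfm2a and, by smaller amounts, gnb1a and snap25b kept more of the rise on SRBCT 3. There SRBCT 3 lay above the MPNST mean by 44.6% or more of the rise on SRBCT 1 and 2, and by 19.1% or less in the first kind. elavl3, gng3 and snap25a of the first kind also stood above every MPNST array on SRBCT 3, so only this share separates the kinds. It does so by the brightest probe set of each gene. On the further probe sets the share was 36.8%, 11.3% and 3.50% for elavl3, -1.57% for gng3 and 42.0% for gnb1a. By those, elavl3 and gnb1a came close to each other. This division was made after the values were seen. Differences ranged from 0.54 to 4.35, with a median of 2.01, beside a median of 0.07 over all 8793 genes. For SRBCT 1 and 2 alone the median was 2.51, and over all genes it was 0.05. In 7 of the 9 genes every SRBCT array lay above every MPNST array, as it did in 12.3% of all genes, but nothing is read from this count because the genes were chosen on this contrast.

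**Figure D1:**
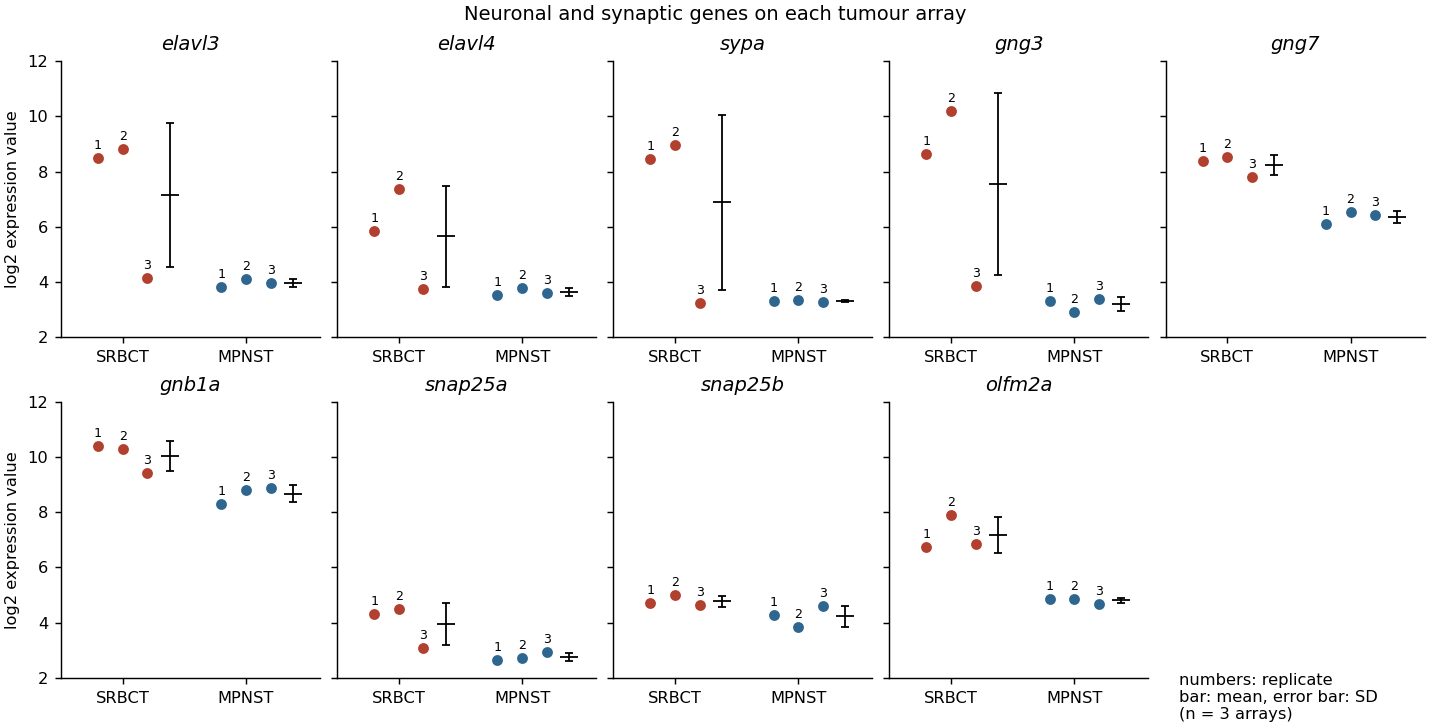
Log2 expression value (vertical axis) of the 9 measured genes on each array, SRBCT left and MPNST right, with the replicate number above each point and the mean and SD (n = 3) beside each group. elavl3, elavl4, sypa and gng3 are high on SRBCT 1 and 2 only, while gng7 and olfm2a are high on all 3 SRBCT arrays.

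Of the RNA-binding proteins, elavl3 (HuC) is a pan-neuronal gene that zebrafish neurons switch on soon after their last division. Its log2 values were 8.50, 8.80 and 4.13 on SRBCT 1, 2 and 3, and 3.83, 4.1 and 3.97 on MPNST 1, 2 and 3. SRBCT 1 and 2 were far above all other arrays, and SRBCT 3 exceeded the highest MPNST array only marginally. The difference was 3.18 (SE 1.22, 9.04-fold), and 4.68 (SE 0.21, 25.7-fold) for SRBCT 1 and 2 alone. The gene has 3 further probe sets, which differed by 1.24, 2.39 and 1.49. Averaged over the 4 probe sets the difference was 2.08. On all 4, SRBCT 1 and 2 lay above every MPNST array.

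elavl4 (HuD), its close relative in maturing neurons, followed the same order at a lower amplitude. Its values were 5.84, 7.37 and 3.75 on SRBCT 1, 2 and 3, against 3.52, 3.79 and 3.62 on the MPNST arrays. SRBCT 3 lay within the MPNST range, so the groups overlapped. The difference was 2.01 (SE 0.86), and 2.96 (SE 0.47) for SRBCT 1 and 2 alone. Without SRBCT 2 it was 1.15. SRBCT 2 was 1.53 above SRBCT 1, so the tumours with high levels also differed between themselves.

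sypa encodes synaptophysin, an abundant membrane protein of the synaptic vesicle. Its values were 8.46, 8.96 and 3.24 on SRBCT 1, 2 and 3, and 3.31, 3.34 and 3.29 on the MPNST arrays. SRBCT 3 was the lowest of the 6 arrays. The MPNST values were nearly equal (3.31 ± 0.03), and they lay at the 15.6 to 16.1 percentile of all probe sets on their arrays, near the dim end. On SRBCT 1 and 2 the gene was at the 89.1 and 91.1 percentile. The difference was 3.57 (SE 1.48), and 5.40 (SE 0.23, 42.1-fold) for SRBCT 1 and 2 alone.

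gng3, a gamma subunit enriched in neurons, had the largest difference of the 9 genes by the brightest probe set of each. It measured 8.63, 10.18 and 3.87 on SRBCT 1, 2 and 3, and 3.33, 2.92 and 3.38 on the MPNST arrays. The groups did not overlap, although SRBCT 3 was only 0.66 above the MPNST mean. The difference was 4.35 (SE 1.54, 20.4-fold), and 6.20 (SE 0.49, 73.3-fold) for SRBCT 1 and 2 alone, which ranked 12 among the 8793 genes by the rise on these 2 arrays. On the same measure sypa ranked 17 and elavl3 28. These folds and ranks rest on dim MPNST values, which RMA draws together, so the sizes of the differences of gng3 and sypa may be understated. A second, dimmer probe set of gng3 differed by 1.83, and on it SRBCT 3 (2.94) was within the MPNST range of 2.83 to 3.22. Averaged over its probe sets gng3 differed by 3.09, less than sypa.

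gng7, another gamma subunit, known in mammals from the striatum, behaved differently from gng3. Its values were 8.38, 8.51 and 7.81 on SRBCT 1, 2 and 3, and 6.1, 6.53 and 6.43 on the MPNST arrays. All 3 SRBCT arrays stood above all MPNST arrays with a gap of more than 1 log2 unit. The means were 8.23 ± 0.37 in SRBCT and 6.35 ± 0.23 in MPNST, a difference of 1.88 (SE 0.26, 3.68-fold), and 2.09 for SRBCT 1 and 2 alone. Here the probe set was in the upper part of the range on all 6 arrays, between the 58.0 and 88.5 percentile.

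gnb1a encodes a beta subunit with which gamma subunits pair. It was bright in both tumours, at 10.39, 10.29 and 9.41 on the SRBCT arrays and at 8.31, 8.80 and 8.87 on the MPNST arrays. The groups did not overlap and differed by 1.37 (SE 0.33, 2.58-fold), and by 1.68 for SRBCT 1 and 2 alone. A second probe set had 9.43, 10.07 and 9.23 in SRBCT against 8.50, 8.92 and 9.14 in MPNST, and its difference of 0.72 (SE 0.30) was only slightly larger than the spread between the MPNST arrays. The paralog gnb1b differed by 0.09 (SE 0.41, limma adjusted p = 0.928).

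The SNAP-25 paralogs were dim on all arrays. snap25a was at 4.30, 4.49 and 3.08 in SRBCT and at 2.66, 2.72 and 2.93 in MPNST. SRBCT 3 exceeded the highest MPNST array by little, and the difference was 1.19 (SE 0.39), or 1.62 for SRBCT 1 and 2 alone. snap25b was at 4.70, 5.0 and 4.63 in SRBCT, against 4.29, 3.83 and 4.59 in MPNST. Its difference of 0.54 (SE 0.26) was the smallest of the 9, and SRBCT 3 and MPNST 3 were nearly equal. It was 0.61 for SRBCT 1 and 2 alone and 0.34 without MPNST 2. Both paralogs stayed at or below the 43.0 percentile on all 6 arrays, so their differences may be understated.

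olfm2a, an olfactomedin gene, measured 6.72, 7.91 and 6.85 on SRBCT 1, 2 and 3, and 4.86, 4.86 and 4.69 on the MPNST arrays. SRBCT 3 lay between SRBCT 1 and SRBCT 2, far above every MPNST array. The means were 7.16 ± 0.65 in SRBCT and 4.8 ± 0.10 in MPNST, a difference of 2.36 (SE 0.35, 5.12-fold). Leaving out SRBCT 3 gave 2.51.

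**Figure D2:**
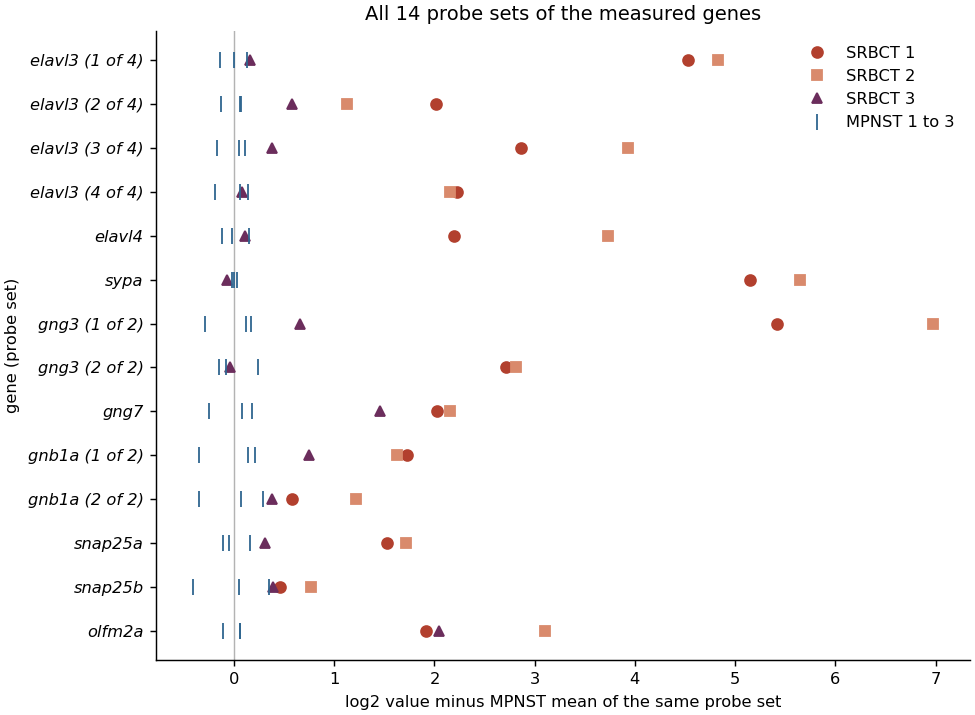
Log2 value minus the MPNST mean of the same probe set (horizontal axis) for all 14 probe sets of the 9 genes, with SRBCT 1, 2 and 3 as separate symbols and the MPNST arrays as ticks. SRBCT 1 and 2 lie right of every MPNST tick on all 14 probe sets, and SRBCT 3 does so on 10 of them.

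Probe sets of a gene did not always rank the arrays alike, as SRBCT 1 was above SRBCT 2 on 2 of the 4 elavl3 probe sets and below it on the others. On all 14 probe sets both SRBCT 1 and SRBCT 2 were above every MPNST array, which held for 22.5% of all probe sets, and on 10 SRBCT 3 was as well, which held for 13.2%. These shares are background, and nothing is read from them because the genes were chosen on this contrast. The 4 probe sets with overlap were 1 each of elavl3, elavl4, sypa and gng3. Over the 6 arrays, elavl3 and sypa correlated at 0.999, and the pairs among elavl3, elavl4, sypa, gng3 and snap25a lay between 0.959 and 0.999. gng7 and olfm2a correlated at 0.955, whereas snap25b correlated with the 8 others at 0.667 to 0.769. gnb1a correlated at 0.971 with gng7 and 0.877 with olfm2a. With the genes of the first kind it correlated at 0.872 (elavl4) to 0.959 (snap25a), so the correlations do not follow the 2 kinds closely. These correlations describe 6 arrays that share the group split and the position of SRBCT 3.

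The position of SRBCT 3 was expressed as its distance from the MPNST mean in percent of the rise on SRBCT 1 and 2. By the brightest probe set of each gene it was -1.36% for sypa, 3.49% for elavl3, 3.60% for elavl4, 10.7% for gng3 and 19.1% for snap25a. For gnb1a it was 44.6%, for snap25b 64.1%, for gng7 69.6% and for olfm2a 81.5%. Among the 620 genes with both SRBCT 1 and 2 above every MPNST array and a mean rise of at least 1, the median was 18.8% and the middle 50% of genes lay between 1.31% and 45.1%. Of these genes 56.3% were below 25% and 22.6% were at 50% or more. The low position of SRBCT 3 for elavl3, elavl4, sypa and gng3 was thus shared with many genes, and the positions of gng7 and olfm2a were above the upper quartile. The 620 genes were chosen by their rise on SRBCT 1 and 2, so a lower position of SRBCT 3 follows in part from that choice.

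**Figure D3:**
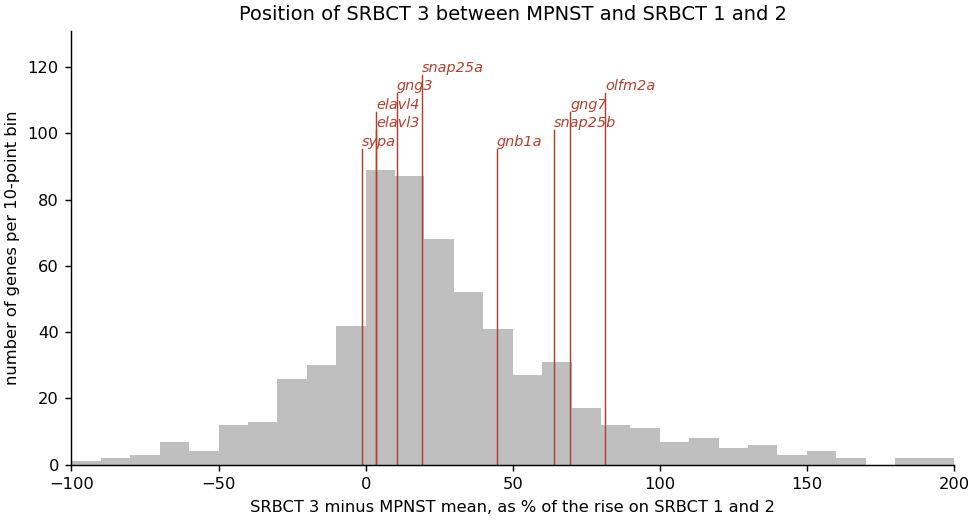
Number of genes (vertical axis) by the position of SRBCT 3 in percent of the rise on SRBCT 1 and 2 over MPNST (horizontal axis), for the 620 genes with a rise of at least 1 log2 unit, of which 6 lie outside the axis. Vertical lines mark the 9 neuronal and synaptic genes, from sypa at -1.36% to olfm2a at 81.5%, and snap25b with its smaller rise is not among the 620.

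Other genes of the same families were counted from lists written by family membership, with earlier results of these data known. Over the 6 arrays none of the 92 measured genes of 6 family lists was called by limma at an adjusted p under 0.05, beside 0.091% of all genes called higher and 0.785% called lower. At an unadjusted p under 0.05 there were 24 of the 92 (26.1%), beside 15.7% of all genes. Groups did not overlap with SRBCT higher in 24 of the 92 genes (26.1%, against 12.3% of all genes) and with SRBCT lower in 9 (9.78%, against 10% of all genes). In the cell type lists below, the share with SRBCT higher was 50% for radial glia and astroglia, 40% for retina and lens, 35.7% for muscle, 35.3% for neurons and 33.3% for endocrine cells. It was 22.2% for oligodendrocytes and Schwann cells, 5% for exocrine pancreas and intestine, and 0% for oocytes, leukocytes and liver. For SRBCT 1 and 2 alone, 14 of the 92 rose (15%) and 4 fell (4.35%), beside 3.22% and 3.95% of all genes. None was called in the 5 other fits that each left out 1 array, so these calls rest on leaving out SRBCT 3, an array known to stand apart. It was left out after its values were seen. The adjusted p-values for SRBCT 1 and 2 alone are therefore descriptions and do not hold as tests.

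Stathmins and axonal cytoskeleton genes held 9 of these 18 calls. The median difference of the 19 measured genes was 1.22, and 16 of them (84.2%) lay above 0, beside 55.9% of all genes. For SRBCT 1 and 2 alone the median was 1.65, and 8 rose (42.1%) and 1 fell (5.26%), beside 3.22% and 3.95% of all genes. stmn1b, of the tubulin-binding stathmin family, was at 9.69, 10.54 and 5.76 in SRBCT and at 5.20, 6.35 and 6.03 in MPNST. SRBCT 3 lay among the MPNST arrays. The difference was 2.80 (SE 1.22, limma adjusted p = 0.348) over the 6 arrays. For SRBCT 1 and 2 alone it was 4.26 (SE 0.44, limma adjusted p = 0.00714). stmn2a, the paralog of the unmeasured stmn2b, was at 6.79, 7.12 and 5.09 in SRBCT and at 4.30, 4.47 and 4.5 in MPNST, with every SRBCT array above MPNST. Its difference over the 6 arrays was 1.91 (SE 0.53, limma adjusted p = 0.214), and it rose by 2.53 on SRBCT 1 and 2 (adjusted p = 0.00409). maptb, a tau gene for a microtubule-associated protein of axons, rose by 3.35 and the axonal kinesin gene kif5aa by 2.74 on SRBCT 1 and 2. uchl1, a ubiquitin hydrolase gene abundant in neurons, went the other way, at 8.28, 8.56 and 7.30 in SRBCT against 10.23, 9.45 and 9.88 in MPNST. It fell by 1.43 on SRBCT 1 and 2 (adjusted p = 0.0485), and its difference over the 6 arrays was -1.81 (adjusted p = 0.133).

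Other G protein subunit genes lay above 0 in 16 of 19 cases (84.2%, beside 55.9% of all genes), and their median difference was 0.37. In the cell type lists below this share ran from 0% in oocytes and liver to 90% in retina and lens and 100% in exocrine pancreas and intestine. Without SRBCT 3 it was 89.5% for the G protein genes, 95% for retina and lens and 60% for exocrine pancreas and intestine. The genes gnat1, gnat2, gngt1, gngt2a and gngt2b are in both the G protein and the retina and lens list, and all lay above 0. For SRBCT 1 and 2 alone the median was 0.42, and 3 rose (15.8%) and 1 fell (5.26%), beside 3.22% and 3.95% of all genes. The gamma subunit gene gng12a was at 10.14, 10.16 and 9.02 in SRBCT and at 8.31, 8.03 and 8.60 in MPNST, without overlap. It differed by 1.46 over the 6 arrays (limma adjusted p = 0.175) and rose by 1.84 on SRBCT 1 and 2 (adjusted p = 0.0138). gng13b differed by 0.90 over the 6 arrays (adjusted p = 0.185) and was not called for SRBCT 1 and 2 alone (adjusted p = 0.0618). On SRBCT 1 and 2 the inhibitory alpha subunit gene gnai2b rose by 2.62 and the beta subunit gene gnb5b by 1.2, while the alpha subunit gene gna12a fell by 1.79.

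SNARE machinery genes other than snap25a and snap25b lay mostly below 0. Differences were above 0 in 4 of 16 genes (25%, beside 55.9% of all genes) and the median was -0.42, or -0.46 for SRBCT 1 and 2 alone. Of the 16, nsfa, a gene for the ATPase that takes SNARE complexes apart, was the single call on SRBCT 1 and 2 (6.25%, beside 3.22% of all genes). It rose by 2.04 there (limma adjusted p = 0.0069), and its values were 5.87, 5.90 and 4.1 in SRBCT against 3.64, 3.95 and 3.96 in MPNST. unc13d, a vesicle priming gene known from blood cells in mammals, differed by -0.69 over the 6 arrays (adjusted p = 0.215).

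Synaptic vesicle genes other than sypa gave a median difference of 0.10, above 0 in 15 of 22 genes (68.2%, beside 55.9% of all genes). For SRBCT 1 and 2 alone the median was 0.12, and 1 rose (4.55%) and 2 fell (9.09%), beside 3.22% and 3.95% of all genes. rab3c, a vesicle GTPase gene, was at 8.43, 9.14 and 7.05 in SRBCT and at 6.06, 6.12 and 6.13 in MPNST, above MPNST on every SRBCT array. Its difference over the 6 arrays was 2.1 (limma adjusted p = 0.167), and it rose by 2.68 on SRBCT 1 and 2 (adjusted p = 0.00664). The synaptophysin-like gene sypl2a was at 6.1, 6.46 and 8.76 in SRBCT and at 10.26, 9.39 and 9.45 in MPNST, opposite in direction to sypa. The list was written by family, so sypl2a need not be a neuronal gene. It differed by -2.59 over the 6 arrays (adjusted p = 0.214) and fell by 3.42 on SRBCT 1 and 2 (adjusted p = 0.00648). The synaptogyrin gene syngr1a fell by 2.71 on SRBCT 1 and 2, and was at 7.55 on SRBCT 3 against 6.26 to 6.54 in MPNST.

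The other neuronal RNA-binding protein genes gave a median difference of 0.45, and 8 of 12 (66.7%) lay above 0, beside 55.9% of all genes. For SRBCT 1 and 2 alone the median was 0.49 and 1 gene was called higher (8.33%, beside 3.22% of all genes). The splicing regulator gene nova2 was at 7.07, 6.26 and 4.11 in SRBCT and at 3.73, 3.92 and 3.98 in MPNST, and rose by 2.79 on SRBCT 1 and 2 (limma adjusted p = 0.00774). rbfox1, another splicing regulator gene, differed by 1.1 over the 6 arrays (adjusted p = 0.108). elavl2, a further Elav-like gene, differed by -1.37 (adjusted p = 0.255), opposite in direction to elavl3 and elavl4. It was at 4.43, 4.29 and 4.85 in SRBCT and at 6.80, 5.66 and 5.21 in MPNST. The broadly expressed elavl1a and elavl1b differed by -0.11 and -0.08 (adjusted p = 0.912 and 0.94), and by 0.30 and 0.38 for SRBCT 1 and 2 alone, where neither was called. The 4 other olfactomedin genes all had differences below 0, with a median of -0.30, or -0.10 for SRBCT 1 and 2 alone. myoc differed by -1.1 (adjusted p = 0.282) and olfml3b by -0.45 (adjusted p = 0.643), and none was called for SRBCT 1 and 2 alone.

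**Figure D4:**
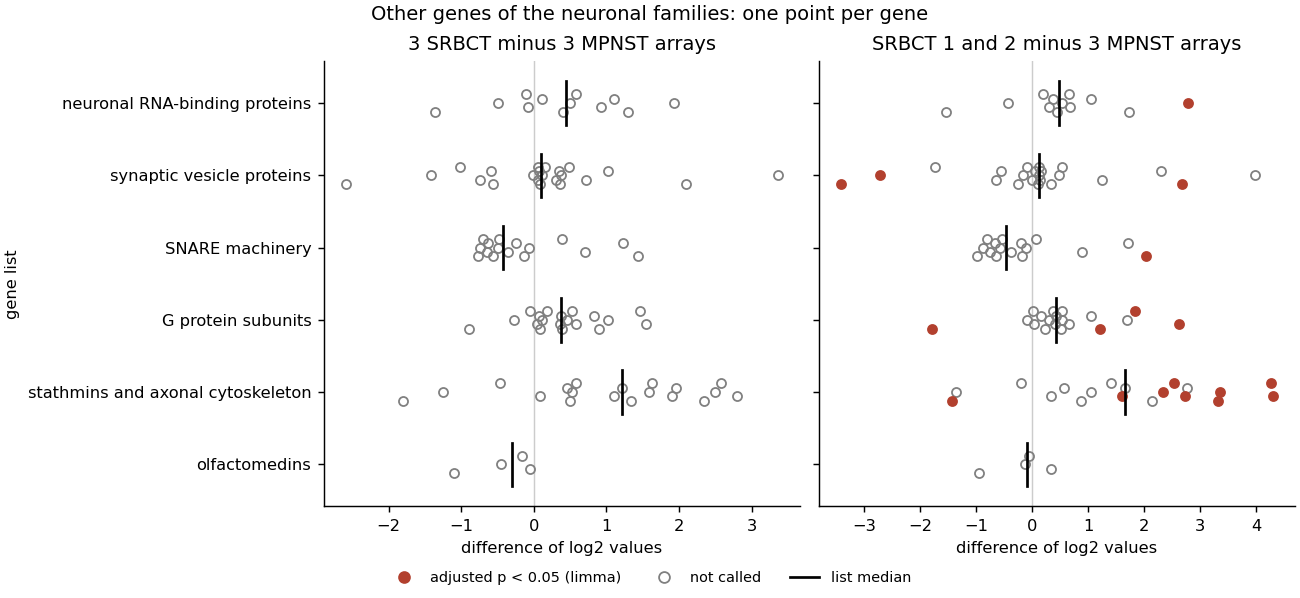
Difference of log2 values (horizontal axis) of each measured gene in 6 family lists, for all 3 SRBCT arrays (left) and for SRBCT 1 and 2 (right) minus the 3 MPNST arrays, with called genes filled and list medians as bars. No gene is called on the left, and on the right 14 are called higher, 8 of them in the stathmin and axonal cytoskeleton list.

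Neuronal lineage transcription factors were counted as a separate list of 17 measured genes. None was called over the 6 arrays, 14 (82.4%, beside 55.9% of all genes) had a difference above 0 and the median was 0.22, or 0.15 for SRBCT 1 and 2 alone. On SRBCT 1 and 2 ascl1a, ascl1b and pou3f1 rose (17.6%, beside 3.22% of all genes). The proneural gene ascl1b was at 9.82, 10 and 4.90 in SRBCT and at 4.33, 4.34 and 5.35 in MPNST, a rise of 5.24 on SRBCT 1 and 2 (limma adjusted p = 0.00293). insm1b, a zinc finger gene of neurons and endocrine cells, was at 6.30, 8.07 and 7.75 in SRBCT and at 4.55, 4.2 and 6.24 in MPNST. It was above MPNST on all 3 SRBCT arrays, with a difference of 2.38 (adjusted p = 0.223). neurog1 and neurod1, which promote neuronal differentiation and were picked after their values were seen, differed by -0.10 and 0.20 (adjusted p = 0.842 and 0.714). neurod1 was dim, between the 2.27 and 14.4 percentile on the 6 arrays, so its difference may be understated.

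The name of differentiated neurons was checked against 17 measured transmitter and channel genes. None was called over the 6 arrays, 14 (82.4%, beside 55.9% of all genes) had a difference above 0 and the median was 0.33, or 0.27 for SRBCT 1 and 2 alone. For SRBCT 1 and 2 alone 3 rose (17.6%, beside 3.22% of all genes). They were the glutamate receptor genes gria2a (1.73) and gria2b (2.51) and the synaptic adhesion gene nrxn1a (3.47). Groups did not overlap with SRBCT higher in 6 of the 17 (35.3%, against 12.3% of all genes), and with SRBCT lower in none. The list's summed signal was 1226, 1179 and 2649 on SRBCT 1, 2 and 3 and between 380.04 and 1369 in MPNST. Its brightest gene, nrgna, was at 9.12, 3.90 and 11.16 in SRBCT and 8.07, 6.27 and 10.07 in MPNST. Most of the sum on SRBCT 3 and on MPNST 3 came from nrgna, so the sum says little of the other genes. In the synaptic vesicle list groups did not overlap with SRBCT higher in 5 of 22 genes (22.7%) and with SRBCT lower in 2 (9.09%). Over all genes these shares were 12.3% and 10%. The vesicle list was written by family, so its genes need not all be neuronal. Of this list slc32a1 and syn1, picked after their values were seen, were dim. The vesicular GABA transporter gene slc32a1 was at 3.09, 2.78 and 3.05 in SRBCT and at 2.69, 2.9 and 2.88 in MPNST, with SRBCT 1 and 2 at the 9.58 and 7.72 percentile. syn1, for the vesicle protein synapsin, was at 2.98, 3.03 and 2.64 in SRBCT and at 2.61, 2.43 and 2.52 in MPNST, at the 7.96 and 11.4 percentile on SRBCT 1 and 2. Its groups did not overlap. The synaptotagmin genes syt11a and syt4, picked in the same way, were bright on SRBCT 1 and 2, but neither was called. syt11a was at 10.54, 10.21 and 8.54 in SRBCT and 5.22, 5.22 and 8.76 in MPNST. syt4 was at 9.63, 9.09 and 4.61 in SRBCT and 6.39, 6.38 and 8.39 in MPNST. The markers of differentiated neurons thus lay mostly above 0, but so did those of other cell types. The share was 85.7% for muscle, 88.9% for endocrine cells, 90% for retina and lens and 100% for exocrine pancreas and intestine. It was 80% for radial glia and astroglia, 77.8% for oligodendrocytes and Schwann cells, 16.7% for leukocytes and 0% for oocytes and liver. Without SRBCT 3 it was 82.4% for neurons, 85.7% for muscle, 77.8% for endocrine cells and 95% for retina and lens. For exocrine pancreas and intestine it was then 60%, and for radial glia and astroglia 80%. It was 66.7% for oligodendrocytes and Schwann cells, 8.33% for leukocytes and 0% for oocytes and liver. With or without SRBCT 3, this share does not set neurons apart. Of the neuron markers 3 were called on the arrays with high elavl3, sypa and gng3. Some vesicle genes were dim there and others bright, and the set is called by its genes.

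Markers of other cell types moved with the same arrays. The summed signal of 10 radial glia and astroglia markers was 12706, 13618 and 1486 on SRBCT 1, 2 and 3, and 1609 to 2271 in MPNST. On SRBCT 1 and 2, 4 of the 10 rose (40%, beside 3.22% of all genes), which were slc1a2b, sox9b, fabp7a and glula. The 2 with the highest mean over the 6 arrays lay below 0. glulb was at 8.36, 8.04 and 8.23 in SRBCT and 10.26, 9.35 and 9.48 in MPNST, and s100b differed by -0.71. Neither was called, and 8 of the 10 lay above 0. Of 9 oligodendrocyte and Schwann cell markers olig2, nkx2.2a and cldnk rose on SRBCT 1 and 2 (33.3%) and pmp22b fell (11.1%), beside 3.22% and 3.95% of all genes. Their summed signal was 4507 to 6990 in SRBCT and 2975 to 3355 in MPNST. Of 18 endocrine markers 5 rose on SRBCT 1 and 2 (27.8%, beside 3.22% of all genes). These were the secretory granule genes chga, scg2a, scg3, scg5 and cpe, which neurons also use, and no hormone gene was called. The insulin gene ins was at 6.65, 5.67 and 6.13 in SRBCT and at 5.75, 5.55 and 5.73 in MPNST. The hormone gene sst1.1, picked after its values were seen, was at 5.97, 5.27 and 6.18 in SRBCT, above 4.41, 4.29 and 4.05 in MPNST. It differed by 1.56 over the 6 arrays (limma adjusted p = 0.0916). For SRBCT 1 and 2 alone it differed by 1.37 (limma adjusted p = 0.0509). The endocrine list summed to 1867, 947.3 and 544.4 on SRBCT 1, 2 and 3, and to 319.3 to 380.8 in MPNST. The part of these cell types in the levels of elavl3, sypa and gng3 was not tested.

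Retina and lens markers, relevant because photoreceptors use SNAP-25 and beta 1 subunits, summed to 418.1 to 472.8 in SRBCT and 320.9 to 351.1 in MPNST, and none of the 20 was called with or without SRBCT 3. SRBCT 3 was marked by digestive genes. The 20 exocrine pancreas and intestine markers summed to 21768 on it, against 1414 and 545.5 on SRBCT 1 and 2 and 570.2 to 2333 in MPNST. Their part in its low neuronal values was not tested. Oocyte markers summed to 263.2 to 511.3 in SRBCT and 7132 to 21509 in MPNST. Over the 6 arrays 8 of the 14 fell (57.1%, beside 0.785% of all genes). Liver markers (13 measured) summed to 363.8 to 1295 in SRBCT and to 27316, 809.4 and 1897 on MPNST 1, 2 and 3. The 12 leukocyte markers summed to 2309 to 5900 in SRBCT and 6590 to 12182 in MPNST, and the 14 muscle markers to 377.05 to 777.3 in SRBCT and 327.7 to 354.99 in MPNST. No marker of the liver and leukocyte lists was called, and of the muscle list actc1b rose on SRBCT 1 and 2 (7.14%, beside 3.22% of all genes). No value is 0 on this scale, so no marker is shown to be absent.

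**Figure D5:**
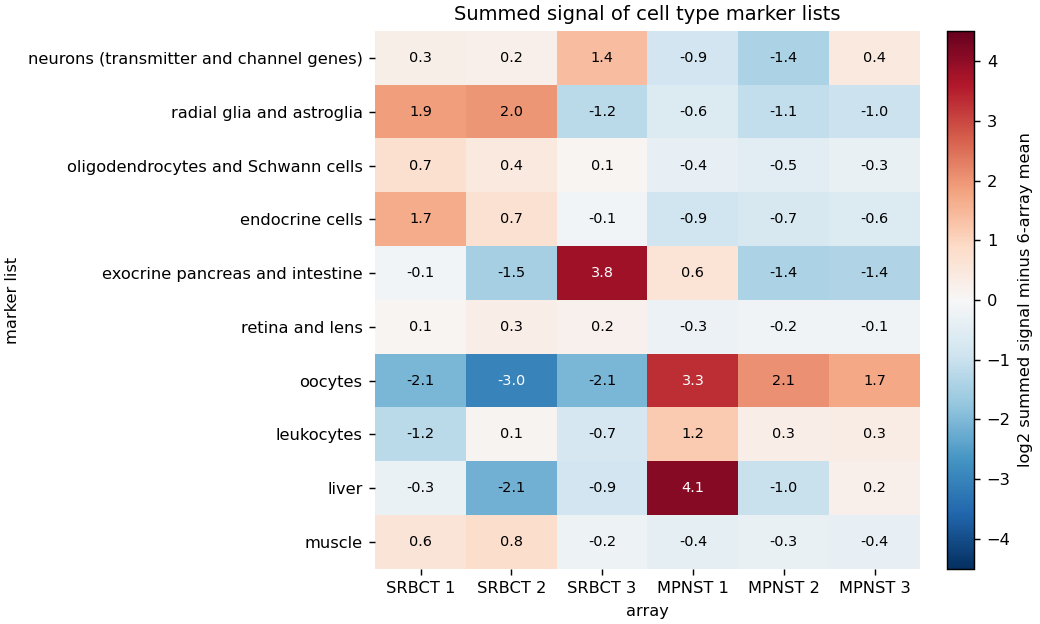
Log2 of the summed signal of each cell type marker list on each array, minus the mean of the 6 arrays (colour and printed value), with SRBCT arrays left of MPNST arrays. Radial glia and astroglia markers are highest on SRBCT 1 and 2, exocrine pancreas and intestine markers on SRBCT 3, and liver markers on MPNST 1.

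The genes most like the set in pattern were ranked by Pearson correlation with the mean profile of the 9 genes over the 6 arrays, among 1108 genes with an SD of at least 1. The mean profile was 1.64, 2.26 and -0.49 on SRBCT 1, 2 and 3, relative to the 6-array mean, and -1.22, -1.14 and -1.04 on the MPNST arrays. The 10 nearest genes with ordinary names were rac3a, a small GTPase gene, the Notch receptor gene notch1a, stmn2a, lhfpl3, the zinc finger gene znf423, the small GTPase gene diras1a, sarm1, whose product acts in axon degeneration in mammals, the POU factor genes pou3f3b and pou3f1, and scg5. Their correlations ranged from 0.993 to 0.999. rac3a was at 5.39, 5.81 and 3.94 in SRBCT and at 3.39, 3.38 and 3.43 in MPNST, and notch1a at 7.13, 8.06 and 5.06 in SRBCT and at 4.07, 4.25 and 4.24 in MPNST. On SRBCT 3 these 10 genes stood at 11.9% to 33.4% of their rise on SRBCT 1 and 2, above sypa, elavl3 and elavl4 and below gng7 and olfm2a. They were chosen by likeness to a mean of both kinds of gene, so a position between the kinds follows from the choice.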

How the data were processed

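Total RNA of each tumour (2.5 micrograms) was labelled as biotinylated cRNA and hybridized to 1 Affymetrix array per fish, per the labels' protocols. The deposited log2 values are the authors' RMA output (affy, R 2.2.0, per the submitters' processing notes), and base 2 is inferred, since RMA gives log2 and the values span 1.86 to 13.88. Scanner files and sequences of the genes were not analysed here.

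Of 15617 probe sets 115 controls were left out. Genes were named from the 2016 platform annotation, with symbols brought up to date by Entrez identifier from a RefSeq table (GRCz12tu), leaving 10795 probe sets having 1 symbol, 135 several and 4572 none. Where a gene had several probe sets, the one brightest on average represented it.

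limma 3.58.1 (R 4.3.3, lmFit and eBayes) compared SRBCT with MPNST on all probe sets, with Benjamini-Hochberg adjustment over all of them and calls at an adjusted p under 0.05, after the method was tested on simulated data. Summed signals add 2 to the power of each value. The 9 measured genes, the family lists, the cell type lists and the alternatives were chosen with earlier results of these data known. Named genes are the members, up to 4 called genes per family list or else the 2 with the smallest p, the 2 brightest markers as values where they bear on the result, the 10 most similar profiles, and nkx2.2a and sox10. Outside this rule gnb1b, elavl1a, elavl1b, neurog1, neurod1, slc32a1, syn1, syt4 and syt11a were named with their values known, as were the called markers. The regulator gene rest has no probe set under its symbol here. The spread behind each p-value is that between fish with the same kind of tumour, and the small number of arrays limits precision.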

Additional observations from a re-analysis of the deposited data

How the results depend on the processing

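All 9 genes kept a higher mean in SRBCT under each alternative that can change a difference. These were cyclic loess, median centring, averaged probe sets and leaving out each array. Trended and robust variance and, in this balanced design, the replicate block cannot change a difference and were used for the calls. Their median difference, 2.01, ranged from 1.74 to 2.51 when 1 array was left out, and sypa from 2.54 without SRBCT 2 to 5.40 without SRBCT 3. A filter on dim probe sets does not alter a difference and would keep 3 of the 9. The median difference of the 92 family genes, 0.24, ranged from 0.098 (without SRBCT 2) to 0.33 (without SRBCT 3) in the settings that kept them all. Over the 44 genes left without dim probe sets it was -0.0067. That is a median over fewer genes, so the sign depends on which genes are kept. Family genes called ranged from 0 to 14 higher and from 0 to 4 lower when 1 array was left out, and were 0 in both directions in all other settings. Over all probe sets, calls higher in SRBCT were 14, and 9 with cyclic loess, 31 without dim probe sets, 4 with the replicate block and 2 to 569 when 1 array was left out. Calls lower were 126, and 23 to 571 when 1 array was left out. The cause was not tested. The labels number the replicates within each group and state no pairing, so whether same-numbered arrays share a batch is not known. Deviations of same-numbered arrays correlated at 0.0627, 0.0703 and -0.0461. The block left the median difference at 2.01, as it must in this balanced design.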
